A study of Solanum lycopersicum var. cerasiforme with 6 samples.

Results

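The genes described here encode the proteins of photosystems I and II (PSI and PSII) and of the antennae that feed them with light energy. They were chosen from the authors' table of all loci by the words of its annotation, as entries with a single gene that name a photosystem, light harvesting or chlorophyll a/b binding. The words were met by 102 entries, which covered 98 genes and belonged to 24556 entries with a single gene. In every group the RNA came from pericarp of cherry tomato, cultivar 'XinTaiyang', and the fruits had been kept in the dark at 20 °C and 90% relative humidity until day 9 after an injection of 25 μL at the mature green stage. The ABA group received abscisic acid at 10 mM, the NDGA group received nordihydroguaiaretic acid at 1 mM, which was used to repress endogenous ABA, and the control group (CK) received distilled water. Each group had 2 libraries, from fruits harvested in successive weeks, and each library pooled the RNA of 10 fruits. The authors deposited 1 value per locus and group, the mean FPKM of the 2 libraries, a unit that scales fragment counts by transcript length and library size. These values carry no error, so no difference described here could be set against the spread between libraries or tested, and the number of fragments behind a value is unknown.

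In chloroplasts, light is absorbed by chlorophyll held in antenna proteins, the Lhca proteins around PSI and the Lhcb proteins around PSII, and its energy moves to the reaction centres. PSII takes electrons from water with the help of the oxygen-evolving subunits on the inner side of the thylakoid membrane, and PSI passes them on to ferredoxin. The antenna and oxygen-evolving proteins and many small core subunits are encoded in the nucleus, whereas the reaction centre proteins are encoded in the plastid genome. A mature green tomato contains chloroplasts in its pericarp. As the fruit ripens they turn into chromoplasts, chlorophyll is broken down and the thylakoids are taken apart.

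Averaged over CK, ABA and NDGA, 71 of the 102 entries reached 1 FPKM, and 31 were below it. A change was counted when the ratio of 2 groups was at least 2-fold and both values were above 0, without a pseudocount. With ABA, 39 of 69 members (56.5%) were at least 2-fold lower than in CK and 3 (4.35%) were at least 2-fold higher. Over all single-gene entries the shares were 10.1% lower and 4.72% higher. With NDGA, 6 of 65 members (9.23%) were at least 2-fold higher and 6 were at least 2-fold lower, against 7.41% and 3.11% of all entries. Between the treated groups, which needs no CK value, 37 of 65 members (56.9%) were at least 2-fold lower with ABA than with NDGA and 4 (6.15%) were higher, against 16.3% and 6.98%. Most of the 39 belonged to structural subunits encoded in the nucleus (antennae, nuclear PSI and PSII core, and PsbO, PsbP, PsbQ and PsbR). Of 40 such entries, 32 (80%) were at least 2-fold lower with ABA than in CK. With NDGA, 35 of the 40 were higher than in CK, as were 9545 of 18050 single-gene entries. At least 2-fold higher with NDGA were 4 (10%), near the 7.41% of all entries.

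**Figure D1:**
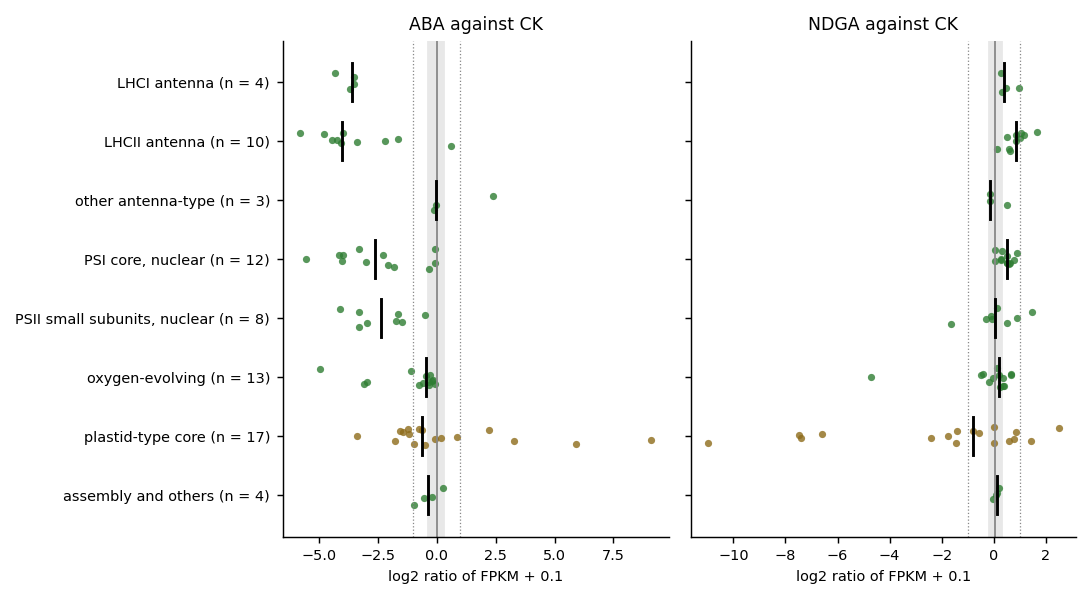
Log2 ratios to CK, formed with 0.1 FPKM added, for the 71 members that averaged 1 FPKM or more, by kind of subunit. Points are entries and black bars are medians, the grey band and line give the middle 50% and the median of all single-gene entries, and dotted lines mark 2-fold. With ABA the antenna and nuclear core medians lie between −4.01 and −2.35, while entries of the plastid-type core scatter to both sides. The median of the oxygen-evolving entries, 7 of which are annotated only by the PsbP family, is −0.47. Over the 6 named subunit entries among them it is −0.72.

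Other features of the libraries moved with the same groups. Entries annotated as oleosin, cruciferin, seed storage, 12S or vicilin are markers of seeds, which the authors removed at sampling. Of these 66 entries, 44 had a ratio, and 37 of the 44 were lower with ABA and 37 were higher with NDGA than in CK. With a mean of at least 1, 32 of 39 were lower with ABA, against 8608 of 17971 of all single-gene entries. With NDGA, 35 of 40 were higher, against 9545 of 18050. The summed level of the seed entries, without an entry listed only in NDGA, was 11508 FPKM in CK, 6529 in ABA and 28720 in NDGA. Among the 19 entries for oleosin, cruciferin and seed storage albumin, 1 was listed at 0 in CK and 2 in ABA, and seed storage albumin 5 (Solyc08g080490.2) was at 2557, 961 and 5783 FPKM in CK, ABA and NDGA. The part of seed RNA in the differences between groups was not tested. In bulk pericarp, fewer cells of a type and less RNA per cell cannot be told apart. The ripening gene for phytoene synthase 1 (Solyc03g031860.2), the first enzyme of carotenoid synthesis, was at 2795, 5451 and 1339 FPKM in CK, ABA and NDGA. The ripening genes E8 (Solyc09g089580.2) and polygalacturonase 2A (Solyc10g080210.1) were listed at 0 with ABA beside 11339 and 10575 FPKM in CK. An exact 0 in this table can therefore be a failed estimate, and a group listed at 0 was given no fold change and entered no count of 2-fold changes. Such values do enter the medians and plots of log2 ratios, where 0.1 FPKM was added to both groups.

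The antenna of PSI was low with ABA in each gene that could be compared. Lhca2 (Solyc10g006230.2), the most abundant of them, was at 100.3 FPKM in CK, 4.87 in ABA and 123.5 in NDGA. This is 20.6-fold lower with ABA than in CK and 1.23-fold higher with NDGA. Lhca3 (Solyc10g007690.2) was at 18.3 FPKM in CK, 1.51 in ABA and 25.4 in NDGA. Lhca4 (Solyc03g115900.2), the partner of Lhca1 in the antenna, was less abundant, at 3.78, 0.199 and 7.49 FPKM. Lhca5 (Solyc07g022900.2), a minor antenna protein that in Arabidopsis helps to attach the NDH complex to PSI, was at 2.16, 0.1003 and 2.61 FPKM. All 4 genes thus had their lowest value with ABA and their highest with NDGA, and the median log2 ratio to CK was −3.61 with ABA and 0.39 with NDGA. Of all single-gene entries, 8608 of 17971 were lower with ABA than in CK and 9545 of 18050 were higher with NDGA. The remaining 3 genes of the PSI antenna had a mean below 1. A second Lhca3 gene (Solyc12g011280.1) was at 0.864, 0.353 and 1.73 FPKM, while Lhca1 (Solyc05g056050.2) and Lhca6 (Solyc12g009200.1) were listed at 0 with ABA and were higher in NDGA than in CK, at 1.77 beside 0.543 FPKM for Lhca1.

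The antenna of PSII consists of the major trimers of Lhcb1, Lhcb2 and Lhcb3 and the minor proteins Lhcb4, Lhcb5 and Lhcb6, which link the trimers to the core. Lhcb5 (Solyc06g063370.2) was at 46.2 FPKM in CK, 4.38 in ABA and 82.9 in NDGA. Lhcb4 (Solyc09g014520.2) was at 38.8, 12.3 and 55.7 FPKM, a smaller difference with ABA of 3.16-fold against 10.5-fold for Lhcb5. A pair of neighbouring Lhcb6 genes on chromosome 1 of SL2.40 had like values. Solyc01g105030.2 (85087642 to 85092579) was at 38.0, 1.63 and 56.5 FPKM in CK, ABA and NDGA, and Solyc01g105050.2 (85093207 to 85094689) was at 26.4, 1.4995 and 40.9 FPKM. In both, the ABA value was the lowest of the 3 and the NDGA value the highest.

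Among the genes of the major trimers, Lhcb2 (Solyc07g047850.2) was the most abundant in CK, at 32.7 FPKM, with 6.95 in ABA and 58.6 in NDGA. A second Lhcb2 gene (Solyc12g006140.1) was at 3.62 FPKM in CK, 0.0352 in ABA and 8.19 in NDGA. Lhcb1 was annotated for 9 genes, 5 of them between 35083363 and 35104691 on chromosome 2 and 4 between 538195 and 546440 on chromosome 3. Copies of Lhcb1 are nearly identical in sequence, so reads can be split among them and the values of single genes are uncertain. Solyc03g005760.1 was at 13.8, 0.151 and 27.6 FPKM in CK, ABA and NDGA, and Solyc02g071030.1 was at 6.80, 0.262 and 21.7 FPKM. Summed over the 9 genes, Lhcb1 was at 22.4, 1.06 and 53.4 FPKM. The other 7 genes had a mean below 1 FPKM, and 5 of them were listed at 0 with ABA. The exception in the PSII antenna was an Lhcb3 gene (Solyc12g011450.1), at 17.5 FPKM in CK, 26.3 in ABA and 19.2 in NDGA, which was 1.51-fold higher with ABA than in CK. A second Lhcb3 gene (Solyc07g063600.2) was at 3.30, 0.117 and 6.83 FPKM. Of the 10 genes with a mean of at least 1, therefore, 9 were at least 2-fold lower with ABA, and all 10 were higher with NDGA, 3 of them at least 2-fold. Over all single-gene entries, 10.1% were at least 2-fold lower with ABA and 7.41% at least 2-fold higher with NDGA. Higher with NDGA by any amount were 9545 of 18050. The median log2 ratio was −4.01 with ABA and 0.84 with NDGA. The summed PSII antenna was at 229 FPKM in CK, 54.2 in ABA and 382 in NDGA. Of the ABA sum, 26.3 FPKM came from the exceptional Lhcb3 gene.

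**Figure D2:**
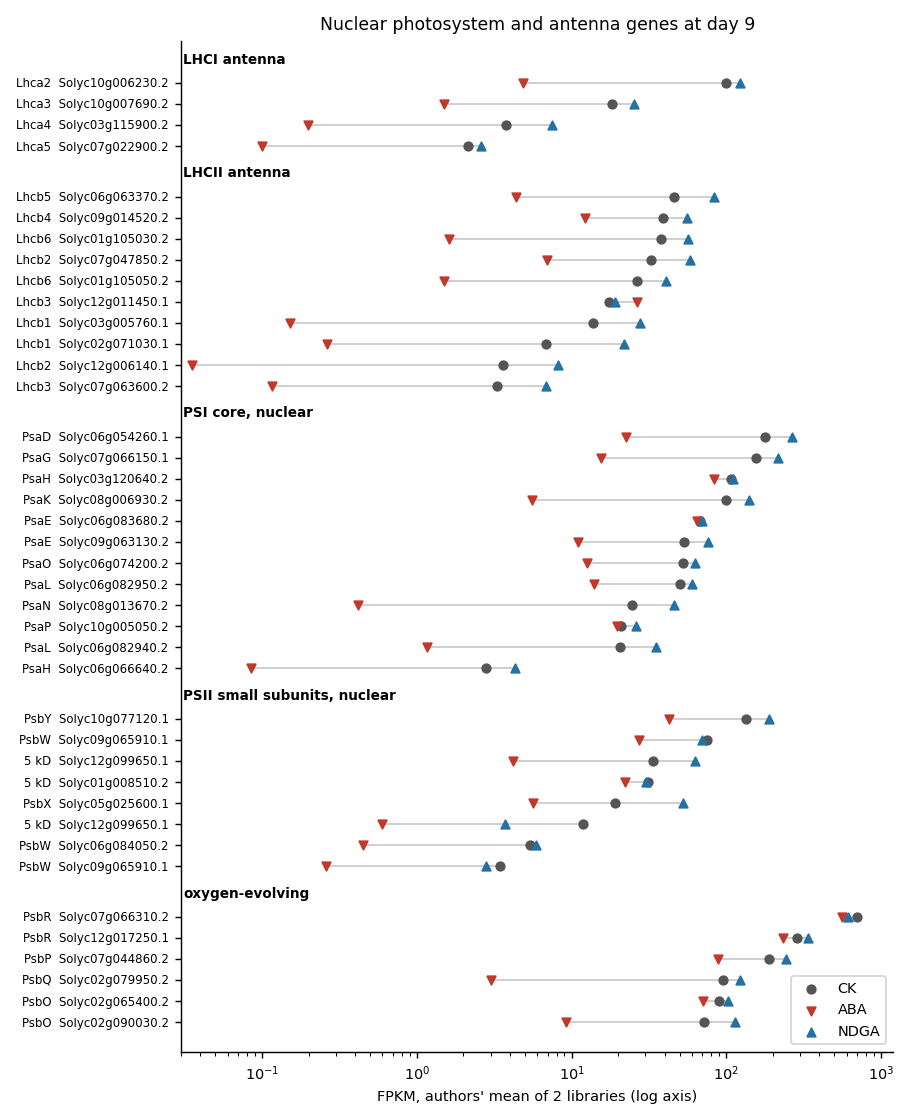
FPKM in CK (circles), ABA (triangles pointing down) and NDGA (triangles pointing up), on a log axis, for the 40 nuclear structural entries with a mean of at least 1. Each point is the authors' mean of 2 libraries and grey lines join the lowest and highest value. The ABA value lies left of the CK value in 39 of the 40 entries, far left for most antenna genes and close to it for both PsbR genes, the Lhcb3 gene Solyc12g011450.1 being the exception.

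Proteins of the same fold that are annotated only as a chlorophyll a/b binding family protein did not follow the antennae. Solyc08g077880.2 was at 30.6 FPKM in CK, 30.0 in ABA and 43.5 in NDGA. Solyc08g007180.2 was at 18.2, 17.0 and 16.7 FPKM. In contrast, Solyc09g082690.2 was at 4.32 FPKM in CK, 22.9 in ABA and 3.93 in NDGA, which is 5.30-fold higher with ABA, and outside the plastid-type core it was the 1 member at least 2-fold higher with ABA. The PsbS gene (Solyc06g060340.2, named by its K03542 identifier), whose protein lets PSII shed excess light energy as heat, was close to 0 in every group, at 0, 0.0248 and 0.0785 FPKM in CK, ABA and NDGA.

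The nuclear core of PSI was also low with ABA, with 3 genes that differed little. PsaD (Solyc06g054260.1), which holds ferredoxin on the stromal side, was at 178 FPKM in CK, 22.3 in ABA and 268 in NDGA. PsaG (Solyc07g066150.1) and PsaK (Solyc08g006930.2) sit where the antenna joins the core. PsaG was at 155, 15.4 and 217 FPKM and PsaK at 100.1, 5.56 and 140 FPKM, so that the log2 ratio of ABA to CK was −4.17 for PsaK. PsaN (Solyc08g013670.2), a lumenal subunit on the plastocyanin side, was at 24.5 FPKM in CK, 0.416 in ABA and 45.8 in NDGA. Its ratio of CK to ABA, 58.8, was the highest of the PSI core. PsaO (Solyc06g074200.2), which lies beside the site where Lhcb trimers dock, was at 52.8, 12.6 and 63.1 FPKM.

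The entries of the PSI core group with small differences were 1 gene each for PsaE, PsaH and PsaP. PsaE takes part in the binding of ferredoxin, and its gene Solyc06g083680.2 was at 67.7 FPKM in CK, 64.3 in ABA and 69.3 in NDGA. PsaH is needed for docking of Lhcb trimers, and its gene Solyc03g120640.2 was at 107, 83.8 and 111 FPKM. PsaP (Solyc10g005050.2) was placed in the PSI core by its annotation alone, and is a thylakoid protein also named CURT1B in Arabidopsis. Its gene was at 20.8, 19.8 and 26.2 FPKM. Over the 12 PSI core entries with a mean of at least 1, 12 were lower with ABA than in CK and 9 of these at least 2-fold, whereas 12 were higher with NDGA and 0 at least 2-fold. Of all single-gene entries, 8608 of 17971 were lower with ABA and 9545 of 18050 were higher with NDGA. At least 2-fold, the shares were 10.1% and 7.41%. The summed level was 832 FPKM in CK, 251 in ABA and 1117 in NDGA.

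In PSII, the small nuclear subunits were represented by 8 entries for 6 genes. PsbY (Solyc10g077120.1), a small membrane-spanning subunit, was at 134 FPKM in CK, 42.5 in ABA and 188 in NDGA. PsbW (Solyc09g065910.1), which in Arabidopsis stabilises the supercomplex of PSII with its antenna, was listed in 2 entries, at 75.5, 27.3 and 69.4 FPKM and at 3.46, 0.260 and 2.80 FPKM. PsbX (Solyc05g025600.1), another membrane-spanning subunit, was at 19.1, 5.65 and 52.4 FPKM, and was with 2.75-fold the member outside the LHCII antenna and the plastid-type core that was at least 2-fold higher with NDGA. The gene of the 5 kD protein on chromosome 12 (Solyc12g099650.1) was also listed in 2 entries at the same position, and these disagreed for NDGA. The first was at 33.5, 4.21 and 62.6 FPKM in CK, ABA and NDGA and the second at 11.9, 0.596 and 3.71 FPKM. With ABA, 7 of the 8 entries were at least 2-fold lower, against 10.1% of all single-gene entries. The other was a further 5 kD gene (Solyc01g008510.2) at 31.4, 22.3 and 30.1 FPKM. The median log2 ratio was −2.35 with ABA and 0.03 with NDGA.

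The oxygen-evolving subunits included the most abundant nuclear members, the PsbR genes, and their differences with ABA ranged from small to large. PsbR (Solyc07g066310.2), a small lumenal protein that helps PsbP and PsbQ to bind, was at 696 FPKM in CK, 559 in ABA and 614 in NDGA. A second PsbR gene (Solyc12g017250.1) was at 287, 234 and 338 FPKM. PsbP-1 (Solyc07g044860.2), which holds calcium and chloride at the water-splitting site, was at 190, 88.2 and 242 FPKM, a 2.15-fold lower value with ABA. PsbQ-2 (Solyc02g079950.2), the extrinsic subunit bound beside PsbP, was at 95.4 FPKM in CK, 3.01 in ABA and 122 in NDGA, which is 31.8-fold lower with ABA. PsbO, the manganese-stabilising protein, had a gene at 89.6, 71.0 and 103 FPKM (Solyc02g065400.2) and another at 72.1, 9.15 and 113 FPKM (Solyc02g090030.2). Of these 6 entries 3 were at least 2-fold lower with ABA, against 10.1% of all single-gene entries, and 3 were less than 1.5-fold lower. Their sum was 1430 FPKM in CK, 965 in ABA and 1533 in NDGA, of which the PsbR genes gave 983, 794 and 952 FPKM.

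A further 10 entries were annotated only by the PsbP family, whose members in Arabidopsis include assembly factors and proteins of the NDH complex rather than water-splitting subunits. Of the 7 with a mean of at least 1, 6 stayed within 2-fold of CK in both treatments, among them Solyc01g106090.2 at 38.5, 36.2 and 27.6 FPKM in CK, ABA and NDGA and Solyc08g043180.2 at 27.7, 24.9 and 20.9 FPKM. The exception, Solyc04g064670.2, was at 35.8 FPKM in CK, 4.08 in ABA and 1.28 in NDGA. It was low in both treated groups, 8.78-fold with ABA and 28.0-fold with NDGA. Staying within 2-fold of CK was common, as 15308 of 17971 single-gene entries did so with ABA and 16151 of 18050 with NDGA.

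Where a subunit had 2 expressed genes, these often differed in their ABA values. The PsaE genes were at similar levels in CK, 67.7 and 53.5 FPKM, but at 64.3 and 10.995 FPKM in ABA, the second gene (Solyc09g063130.2) being at 75.7 FPKM in NDGA. In the same way, the PsbO genes were at 71.0 and 9.15 FPKM in ABA from 89.6 and 72.1 in CK. A second PsaH gene (Solyc06g066640.2) was at 2.81, 0.0847 and 4.34 FPKM in CK, ABA and NDGA, and a further one (Solyc12g044280.1) was listed at 0 with ABA beside 0.260 FPKM in CK. The log2 ratios of both expressed PsaH genes for ABA against CK lay 4.71 apart. For Lhcb3 the distance was 5.41, the largest of the families, for Lhcb2 it was 4.45, for PsbO 2.64 and for PsaE 2.21. The distances of Lhcb3, Lhcb2 and PsaH each rest on a gene with an ABA value below 1 FPKM. With 1 FPKM added, the log2 ratios were 0.56 and −1.95 for Lhcb3, −2.08 and −2.16 for Lhcb2 and −0.34 and −1.81 for PsaH. For PsbO they were then −0.33 and −2.85, and for PsaE −0.07 and −2.18. The PsaL genes, whose product lies where Lhcb trimers dock, are neighbours on chromosome 6 of SL2.40 and yet differed by 2.31. Solyc06g082950.2 (44853092 to 44854885) was at 50.1, 14.0 and 60.4 FPKM, while Solyc06g082940.2 (44850629 to 44851884) was at 20.7, 1.17 and 35.2 FPKM. In contrast, the neighbouring Lhcb6 genes differed by 0.41 and the PsbR genes by 0.02. In PsaH, PsaL, Lhcb2 and Lhcb3 the gene with the lower level in CK had the lower ratio with ABA, and in PsaE and PsbO the same held with levels in CK that were closer. The order was the opposite in Lhcb6, in PsbR, where the ratios were nearly equal, and between the more abundant Lhcb1 genes, with log2 ratios of −4.70 for the gene at 6.80 FPKM in CK and −6.52 for that at 13.8 FPKM. For genes listed in 2 entries, the more abundant entry was taken. The 5 kD genes then also had the opposite order, with −2.99 at 33.5 FPKM in CK and −0.50 at 31.4 FPKM. In PsbW the gene with the lower level had the lower ratio, −3.58 at 5.40 FPKM (Solyc06g084050.2) beside −1.47 at 75.5 FPKM.

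**Figure D3:**
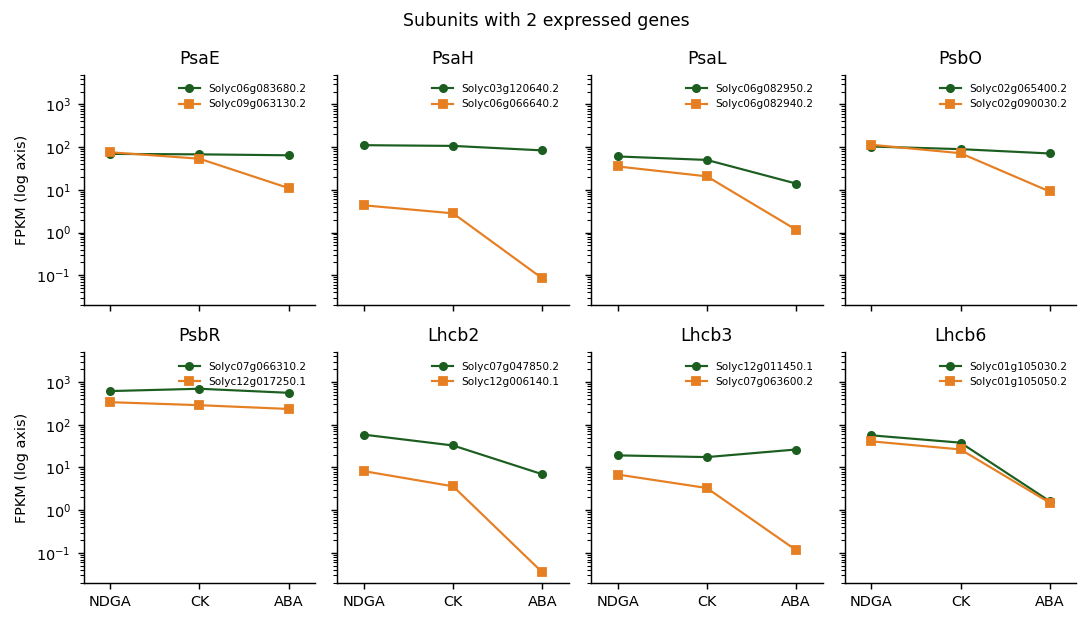
FPKM in NDGA, CK and ABA, on a log axis, for 8 subunits with 2 genes of a mean of at least 1. Lines join the group means of a gene and green marks the gene with the higher mean. The lines part in ABA for PsaE, PsaH, PsaL, PsbO, Lhcb2 and Lhcb3, and run together for Lhcb6 (0.41 apart on the log2 scale) and PsbR (0.02 apart). The lower ABA value is below 1 FPKM for PsaH, Lhcb2 and Lhcb3, so the size of their gap is uncertain.

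Across the kinds of subunit, the summed level was 17.9-fold lower with ABA than in CK for the PSI antenna, 4.22-fold for the PSII antenna, 3.32-fold for the nuclear PSI core, 3.04-fold for the small PSII subunits and 1.48-fold for PsbO, PsbP, PsbQ and PsbR. Sums follow the most abundant genes. The PsbR genes, which differed little, gave 983 of 1430 FPKM of the last sum in CK and 794 of 965 in ABA. Lhca2 gave 100.3 of 126 FPKM of the PSI antenna in CK. By medians of the log2 ratio the order was PSII antenna (−4.01), PSI antenna (−3.61), PSI core (−2.63), small PSII subunits (−2.35) and the 6 named oxygen-evolving entries (−0.72), against 0.02 over all single-gene entries. This order is not firm. With a minimum mean of 10 FPKM the antenna medians were −3.37 for PSII and −3.93 for PSI, and without a minimum the PSII antenna was at −2.22, beside −2.27 for the PSI core and −2.35 for the small PSII subunits. The ranges of single genes also overlapped, from −5.80 to 0.59 in the PSII antenna, from −5.57 to −0.07 in the PSI core and from −4.94 to −0.09 over all oxygen-evolving entries. Directly between the treatments, the median log2 ratio of ABA to NDGA was −4.84 in the PSII antenna, −4.31 in the PSI antenna, −3.18 in the PSI core, −2.73 in the small PSII subunits and −0.997 in the 6 oxygen-evolving entries. With NDGA against CK the PSII antenna had the highest median, 0.84, beside 0.49 in the PSI core and 0.39 in the PSI antenna.

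Core subunits that land plants encode in the plastid genome gave 32 entries for 30 genes of the SL2.40 assembly, a separate case within the list. Among them, Solyc00g277510.1 (PsbA) and Solyc00g230080.1 (PsbD) are listed on chromosome 0. The RefSeq table of tomato genes places psaA, psaB, psbA, psbC, psbD, psbE and psbI on the plastid genome, so these loci resemble plastid genes, and reads of plastid RNA cannot be told apart from their own. A further entry is annotated as PsbG, an older name for a subunit of the NDH complex. Of the 32 loci 11 were at most 300 bp long, while 0 of the other 70 members were, and FPKM of such short loci are divided by very small lengths. PsbA, the D1 reaction centre protein, accounted for the highest values. Its locus Solyc12g039030.1 (chromosome 12, 37588326 to 37588488) was at 21950 FPKM in CK, 8063 in ABA and 7955 in NDGA. Solyc02g021290.1, also a PsbA locus, was listed in 2 entries, at 7183, 3642 and 4140 FPKM and at 4643, 1583 and 1358 FPKM. These high PsbA entries were lower in both treated groups than in CK. The libraries were made after poly(A) selection, and how well they represent plastid RNA was not tested. Another PsbA locus, Solyc00g277510.1, was at 109, 199 and 73.0 FPKM in CK, ABA and NDGA.

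For PsbC, the CP43 core antenna, the directions were mixed. Solyc10g061830.1 was at 132 FPKM in CK, 38.8 in ABA and 24.9 in NDGA, whereas Solyc12g027550.1 was at 4.87, 48.5 and 28.0 FPKM. Of the PsaA and PsaB loci, which carry the PSI reaction centre, Solyc02g036320.1 was at 201 and 19.4 FPKM in CK and ABA and was listed at 0 in NDGA, and Solyc06g009940.1 was at 53.6, 31.3 and 79.5 FPKM. Loci for PsbD, the D2 reaction centre protein, stayed at or below 2.46 FPKM in every group. Over the 15 entries with a ratio, 6 (40%) were at least 2-fold lower with ABA and 2 (13.3%) higher, against 10.1% and 4.72% of all single-gene entries. Of 11 with a ratio for NDGA, 4 (36.4%) were at least 2-fold lower and 2 (18.2%) higher, against 3.11% and 7.41%. Another 4 entries, at 9.70 to 201 FPKM in CK, were listed at 0 in NDGA and so entered no count for NDGA. For ABA, 2 entries listed at 0 in CK and above 0 in ABA were left out in the same way. Without the plastid-type core, 33 of 54 members (61.1%) were at least 2-fold lower with ABA than in CK and 1 (1.85%) was higher. With NDGA 4 (7.41%) were higher and 2 (3.70%) were lower, close to the shares of all entries.

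**Figure D4:**
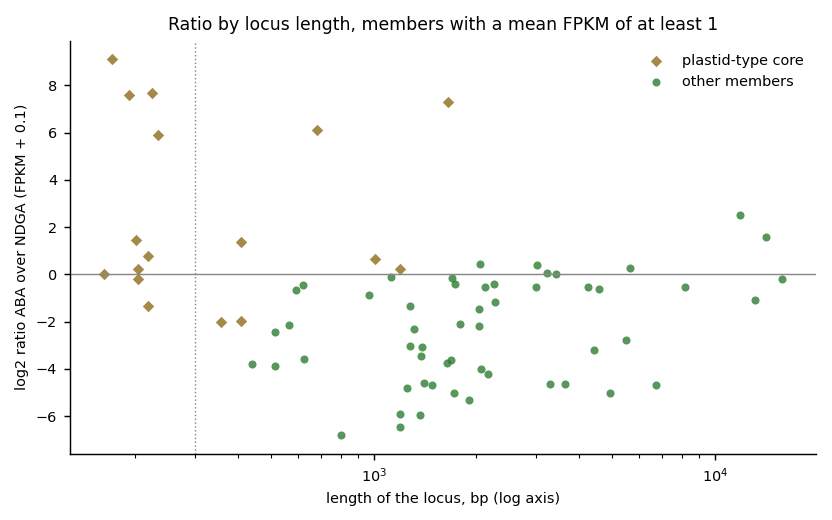
Log2 ratio of ABA to NDGA, with 0.1 FPKM added, against the length of the locus in bp on a log axis, for the 71 members that averaged 1 FPKM or more. Diamonds are plastid-type core entries, circles are other members and the dotted line marks 300 bp. The 10 entries at or left of 300 bp are all plastid-type, and the ratios of entries listed at 0 in NDGA rest on the added 0.1.

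Genes that build or repair PSII but are not part of it differed less with ABA. HCF136 (Solyc02g014150.2), an assembly factor of the PSII reaction centre, was at 19.8 FPKM in CK, 10.0 in ABA and 21.0 in NDGA, a ratio of CK to ABA of 1.97. The Psb27 gene (Solyc07g054290.1, named by its K08902 identifier) was at 44.3, 30.7 and 48.7 FPKM. Psb29 (Solyc07g054820.2), which in Arabidopsis acts in thylakoid formation, was at 23.7, 20.3 and 22.9 FPKM. The gene of an 11 kDa PSII-related protein (Solyc09g076030.2) was at 4.73, 5.76 and 5.48 FPKM, and Psb28 (Solyc09g064500.2) was below 1 FPKM in each group. Of the 4 entries with a mean of at least 1, 0 were changed 2-fold in either treatment against CK. That was common, as 15308 of 17971 single-gene entries stayed within 2-fold with ABA and 16151 of 18050 with NDGA. Directly between the treatments, 1 of the 4, HCF136, was at least 2-fold lower with ABA, at a log2 ratio of −1.07. The median log2 ratio to CK was −0.37 with ABA and 0.11 with NDGA, against 0.02 and 0.03 over all single-gene entries.

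Other genes of the light reactions were read from lists of annotation words. Over all single-gene entries, 10.1% were at least 2-fold lower with ABA than in CK and 4.72% were at least 2-fold higher. Plastocyanin 1 (Solyc04g082010.1), which carries electrons to PSI, was at 13.5 FPKM in CK, 2.97 in ABA and 21.2 in NDGA, but over the whole list of ferredoxin and plastocyanin annotations, most of them not photosynthetic carriers, 3 of 24 entries were at least 2-fold lower with ABA and 0 were higher. In the cytochrome b6f complex, which links both photosystems, the Rieske protein PetC (Solyc12g005630.1) was at 31.7, 30.1 and 32.7 FPKM. The ATP synthase list also holds mitochondrial subunits, and 4 of 12 entries (33.3%) were at least 2-fold lower with ABA and 0 were higher. They included a delta subunit gene (Solyc12g056830.1) at 28.9, 4.64 and 43.1 FPKM, and the others were at or below 2.03 FPKM in CK. By any amount, 7 of the 12 were lower with ABA and 5 were higher. The most abundant, a chloroplast-type F0 subunit gene (Solyc12g027720.1), was at 248, 423 and 84.6 FPKM in CK, ABA and NDGA. Another delta subunit gene (Solyc05g050500.1) was at 33.5, 31.2 and 41.0 FPKM. The summed list was at 733, 905 and 548 FPKM. PGR5 (Solyc09g090570.2), a protein of cyclic electron flow around PSI, was at 6.71, 0.798 and 14.8 FPKM. It was the 1 of 7 entries (14.3%) of its list at least 2-fold lower with ABA. Of the 10 chlorophyll breakdown entries with a ratio, 2 (20%) were at least 2-fold higher and 2 (20%) were at least 2-fold lower with ABA. The stay-green gene annotated as non-yellowing 1 (Solyc08g080090.2), whose product removes magnesium from chlorophyll, was at 327 FPKM in CK, 748 in ABA and 306 in NDGA. Pheophytinase (Solyc01g088090.2), which acts on the next intermediate, was at 58.4, 133 and 50.8 FPKM. Both were higher in the group where most antenna genes were lower, whereas chlorophyllase 2 (Solyc12g005300.1) was at 7.201, 0.773 and 22.2 FPKM.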

How the data were processed

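Pericarp RNA of 3 groups (CK, ABA and NDGA, 2 libraries each) was sequenced after poly(A) selection. The authors aligned reads to the tomato genome SL2.40 (annotation ITAG2.3) with TopHat2 2.0.9, used Cufflinks 2.1.1 to obtain FPKM and averaged both replicates, and they deposited these mean FPKM, 1 per locus and group. Another 4 deposited tables, lists of genes with the authors' calls and fold changes, were not used. The files carry neither counts nor values per library, so no test was possible and the depth behind a value is unknown. Whether counting used strand is not given in the sources used here.

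Entries with a single gene were taken by annotation words and sorted into subunits by hand. Positions are those of the locus in the file. Ratios carry no pseudocount and need values above 0 in both groups. Medians use FPKM + 0.1 and a mean FPKM of at least 1. The members and lists were chosen with earlier results of these data known. Named genes were the 6 highest of each kind of subunit and, in each comparison, the 5 highest and 5 lowest ratios among members with a mean of at least 5 and values above 0. Further members were named after their values were seen. Gene identifiers had 0 matches in the RefSeq table, and no sequences are shown. Alternatives were another fold threshold, minimum, pseudocount and scaling, and other choices of entries. Python 3.11.15, numpy 2.4.6, pandas 2.3.3 and matplotlib 3.10.9 were used, and the counting was tested on simulated data.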

Additional observations from a re-analysis of the deposited data

How the results depend on the processing

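No paired analysis was possible because the files give 1 mean per group, and no library could be left out for the same reason. The medians of the other antenna-type entries, all near 0, changed sign without a minimum (ABA against CK from −0.03 to 0.15, NDGA against CK from −0.13 to 0.19, ABA against NDGA from 0.03 to −0.24). No other median changed sign under the alternatives tried. In size, 10 counts moved by more than 1.5 times and 32 did not, and 27 medians moved by 0.25 or more on the log2 scale and 69 did not. Setting the median of all entries to 0 (shifts of at most 0.03), genes listed in 1 entry, and loci longer than 300 bp, chosen after seeing the data, moved no count, and the first moved no median.

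The main counts of 39 members lower with ABA than in CK and 37 lower than with NDGA stayed within 1.5 times under every alternative. The small counts moved. Members higher with ABA than in CK numbered 3, with 5 when 1 FPKM was added and 1 without the plastid-type core. Members higher with NDGA than in CK numbered 6, with 3 at a log2 threshold of 1.5, 3 when 1 FPKM was added and 13 without a minimum. Members lower with NDGA numbered 6, with 10 when 1 FPKM was added and 2 without the plastid-type core. Members higher with ABA than with NDGA numbered 4, with 2 at a threshold of 1.5, 10 when 1 FPKM was added and 2 without the plastid-type core.

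Adding 1 FPKM in place of 0.1 drew the medians towards 0, because many ABA values are below 1 FPKM. For ABA against CK they became −2.47 (PSI antenna), −2.39 (PSII antenna), −2.09 (PSI core) and −1.73 (small PSII subunits), and for ABA against NDGA −3.11, −3.56, −2.49 and −1.86. Without a minimum, the medians of ABA against CK were −2.22 (PSII antenna) and −2.27 (PSI core), those of ABA against NDGA were −3.99 (PSI antenna), −3.14 (PSII antenna), −2.77 (PSI core) and 0.22 (plastid-type), and that of NDGA against CK was 0.79 (PSI antenna). With a minimum of 10 FPKM, the medians of ABA against CK were −3.93 (PSI antenna), −3.37 (PSII antenna), −2.27 (PSI core), −1.65 (small PSII subunits) and −0.88 (plastid-type), those of ABA against NDGA were −4.21 (PSII antenna), −2.77 (PSI core) and −2.14 (small PSII subunits), and those of NDGA against CK were 0.49 (small PSII subunits) and −1.43 (plastid-type). Of the ratios of named genes, 38 moved by 0.25 or more when 1 FPKM was added and 109 did not. The size of a ratio with an ABA value below 1 FPKM is therefore less certain than its direction.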

Other observations

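Another 4 entries met the annotation words but merged several genes into a single value and were left out of the counts. The PsaF entry (Solyc02g069450.2 with Solyc02g069460.2), for the subunit that docks plastocyanin to PSI, was at 53.1 FPKM in CK, 19.2 in ABA and 72.7 in NDGA, lowest with ABA and highest with NDGA like most single genes of the PSI core. A chlorophyll a/b binding family entry of 2 genes (Solyc04g082920.2 with Solyc04g082930.1) was at 19.5, 21.0 and 13.2 FPKM. A PsbB entry of 3 genes was at 1.18, 1.41 and 1.84 FPKM, and a PsbJ entry of 2 genes at 2.23, 4.98 and 2.91 FPKM, both subunits being encoded in the plastid genome of land plants.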
